A study of Homo sapiens with 6 samples.

Results

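The interleukin 6 family comprises cytokines that signal through receptor complexes built around gp130, the shared chain encoded by IL6ST. Of the 10 genes described here, 6 encode ligands (IL6, IL11, LIF, OSM, CLCF1 and CTF1) and 4 encode receptor chains (IL6R, IL6ST, LIFR and OSMR). Members were all probe sets that the platform annotation gives to exactly 1 of these symbols, and a probe set is a group of short probes on the array that together yield a value for a transcript. This gave 25 of the 54613 non-control probe sets, for 9 of the 10 genes and of 19775 genes measured, and CLCF1 was not analysed here.

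Expression was measured on 6 Affymetrix arrays of total RNA from SNU-449, an established human hepatocellular carcinoma cell line. In 3 arrays the cells are labelled USP48 overexpression, meaning stable lentiviral transfer of USP48, a ubiquitin-specific protease, followed by puromycin selection. In the other 3 arrays the cells are labelled as carrying an empty vector. All cells were grown in serum-containing RPMI-1640 medium. The protocol in the labels describes only the USP48 virus, and it does not say how the empty vector cells were infected or selected, whether either line was 1 clone or a pool, or whether replicates were separate cultures. The p-values below therefore measure only the spread between these arrays, which may be technical. The labels set up 1 comparison, of transcript levels in the USP48-labelled cells against those in the empty vector cells.

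As background, IL6 binds IL6R, and IL11 binds its own receptor IL11RA; each of these pairs then engages gp130 as a homodimer. LIF and cardiotrophin 1 (CTF1) use gp130 together with LIFR, and oncostatin M (OSM) uses gp130 with OSMR, or in humans with LIFR. Engaged complexes activate JAK kinases and the transcription factor STAT3, and SOCS3 shuts the signal down. In the liver, IL6 is known as the main inducer of acute-phase proteins in hepatocytes.

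On the deposited values, USP48 itself was not called higher by any of its 5 probe sets in the USP48-labelled arrays. Probe set 220079_s_at averaged 7.06 in the USP48-labelled arrays and 7.88 in the empty vector arrays on the deposited log2 scale, and 220078_at averaged 4.34 in the USP48-labelled arrays and 4.97 in the empty vector arrays; both were called lower (limma adjusted p = 0.00013 and 0.00085). The other 3 USP48 probe sets had log2 differences of −0.13, 0.24 and −0.25 and did not pass. The one at 0.24, 229812_at, was called higher after quantile normalization (0.30, limma adjusted p = 0.041) and was at −0.052 after scaling on the hybridization controls. Whether the transferred USP48 sequence is covered by these probe sets was not analysed here, so the groups are named by their labels throughout, and every direction below is drawn from arrays in which no rise of USP48 was called on the deposited values.

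The arrays also differed in technical measures. The 18 probe sets for hybridization controls, labelled RNAs added before hybridization, averaged 10.09 ± 0.10 in the USP48-labelled arrays and 9.79 ± 0.04 in the empty vector arrays (SD, n = 3 each; two-sided exact permutation test, p = 0.1, and 3 arrays a group cannot give a smaller one). The 24 probe sets for poly-A controls averaged 5.55 in the USP48-labelled arrays and 5.13 in the empty vector arrays (exact permutation test, p = 0.1). GAPDH probe sets, which report on RNA integrity, differed (5′ minus 3′) by −0.51, −0.45 and −1.31 in USP48-labelled replicates 1, 2 and 3, against −0.32, −0.37 and −0.44 in the empty vector arrays. For ACTB this measure was −3.88, −3.44 and −4.14 in the USP48-labelled arrays. In the empty vector arrays it was −3.26, −3.42 and −3.70, so the ACTB groups overlapped. The part of these differences in the results was not tested. Most hepatocyte markers were dim in both groups: 8 of 12 measured markers had both group means below the median of every array, among them albumin (ALB), at 2.14 in the USP48-labelled arrays and 2.07 in the empty vector arrays. In both groups 3 of the 12 lay above the medians, such as CYP3A4, at 5.85 in the USP48-labelled arrays and 5.84 in the empty vector arrays. Of the 12, 1 was called: ASGR1 was higher by 0.39 (limma adjusted p = 0.028). Of 6 epithelial and hepatoma markers, the keratins KRT8 and KRT18 were bright, at 10.57 and 11.80 in the USP48-labelled arrays and 10.88 and 11.79 in the empty vector arrays. The adhesion molecule EPCAM was called lower, at 6.28 in the USP48-labelled arrays and 6.69 in the empty vector arrays, while AFP, GPC3 and the dim KRT19 did not pass. The leukocyte marker PTPRC was at 1.88 in the USP48-labelled arrays and 1.96 in the empty vector arrays. The mean level of the 11 measured leukocyte markers ran from 3.39 to 3.50 in the USP48-labelled arrays and from 3.29 to 3.36 in the empty vector arrays, and 1 of the 11, CD2, was called (log2 difference 0.29). Of 11 fibroblast and stellate cell markers 2 were called, both lower. Beside these marker counts, 29.8% of all 19775 genes were called, 15.7% higher and 14.1% lower. The matrix proteoglycans LUM and DCN had log2 differences of −1.35 and −1.14 (limma adjusted p = 9.0e-06 and 1.5e-05). The mean level of the 11 fibroblast and stellate cell markers ran from 4.09 to 4.18 in the USP48-labelled arrays and from 4.30 to 4.44 in the empty vector arrays. Of 10 endothelial markers 1, CDH5, was called, at −0.42, and their mean level ran from 3.26 to 3.36 in the USP48-labelled arrays and from 3.19 to 3.33 in the empty vector arrays. The part of these markers in the results was not tested.

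Within the family, transcripts of the ligands IL6, IL11 and LIF and of the receptor OSMR rose in the USP48-labelled arrays by every probe set. IL6 and LIF have only 1 probe set each, IL11 has 2 and OSMR has 3. LIFR fell by 4 of its 5 probe sets. IL6R, OSM and CTF1 had no called probe set, and IL6ST was split between probe sets. Of the 25 probe sets, 9 rose, 4 fell and 12 did not pass at a limma adjusted p under 0.05, which makes 52% called. Over all 54613 probe sets 24.3% were called, 10.6% higher and 13.8% lower. The groups did not overlap for 15 of the 25 (60%), against 38.2% of all probe sets. The median log2 difference, USP48-labelled minus empty vector, was 0.10 over the 25 and 0.03 over all probe sets. Since the family was picked with earlier results of these arrays known, these shares are descriptions. No filter on low values was applied; 6 of the 25 probe sets had both group means below the median of every array, which ran from 3.75 to 3.79. For dim probe sets no fold is given.

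**Figure D1:**
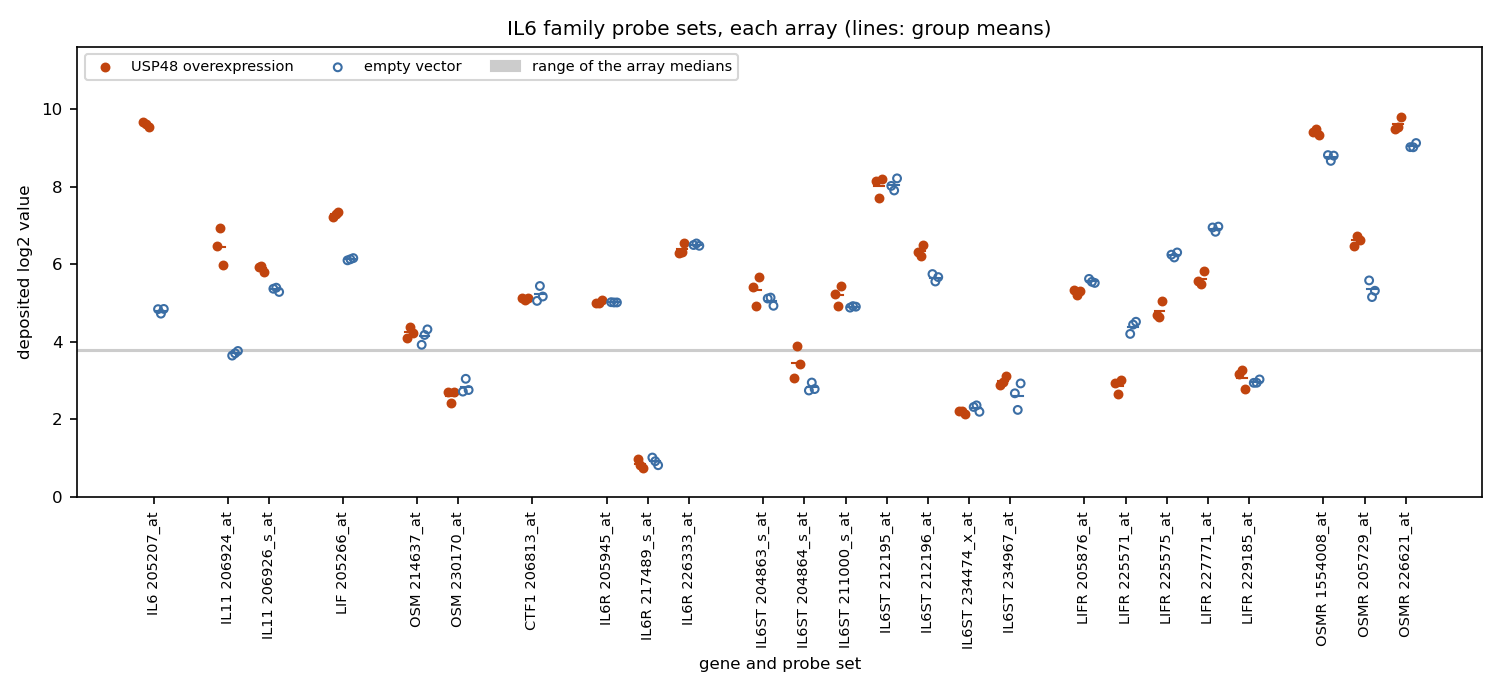
Deposited log2 values (vertical axis) of the 25 IL6 family probe sets (horizontal axis), with filled points for the 3 USP48-labelled arrays on the left and open points for the 3 empty vector arrays on the right of each position, short lines for group means and a grey band for the range of the array medians. The groups stand apart for IL6, IL11, LIF and OSMR, with the USP48-labelled arrays higher, and for 4 of 5 LIFR probe sets, with the USP48-labelled arrays lower. Nor do they overlap for IL6ST 204864_s_at, 211000_s_at and 212196_at (USP48-labelled arrays higher) or for OSM 230170_at (USP48-labelled arrays lower). The other 10 of the 25 overlap.

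RefSeq promoter sequences (GRCh38.p14) were available for 6 of the 10 genes, namely IL6, IL11, IL6R, IL6ST, LIFR and OSMR. The 250 bases before the annotated start are printed for those of them that rose by every probe set, 5′ to 3′ along the gene. Capitals mark matches, on either strand, to the NF-κB consensus, AP-1 (TGANTCA), CRE (TGACGTCA), CRE half-site (TGACG), C/EBP (TTNNGNAA), STAT (TTCNNNGAA) or TATA box (TATAAA); every CRE holds its half-site on both strands, and a match is a description of letters, not a binding site.
IL6 upstream sequence, chr7:22726950-22727199, plus strand: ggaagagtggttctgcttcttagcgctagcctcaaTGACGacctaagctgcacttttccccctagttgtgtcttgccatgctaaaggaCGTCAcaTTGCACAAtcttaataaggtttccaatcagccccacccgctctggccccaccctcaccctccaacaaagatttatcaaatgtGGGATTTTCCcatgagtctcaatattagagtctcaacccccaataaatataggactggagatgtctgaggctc
IL11 upstream sequence, chr19:55370464-55370713, minus strand: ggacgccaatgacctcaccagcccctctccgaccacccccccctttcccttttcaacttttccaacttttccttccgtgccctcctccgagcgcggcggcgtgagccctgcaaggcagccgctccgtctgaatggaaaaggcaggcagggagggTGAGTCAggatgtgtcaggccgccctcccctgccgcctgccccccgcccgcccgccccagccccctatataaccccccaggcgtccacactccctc
OSMR upstream sequence, chr5:38845762-38846011, plus strand: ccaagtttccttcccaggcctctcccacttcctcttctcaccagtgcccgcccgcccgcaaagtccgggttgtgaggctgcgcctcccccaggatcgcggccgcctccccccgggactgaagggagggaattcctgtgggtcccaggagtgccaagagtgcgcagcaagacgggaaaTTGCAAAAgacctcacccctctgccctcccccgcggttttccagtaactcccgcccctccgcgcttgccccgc

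The IL6 window held the NF-κB match GGGATTTTCC 73 to 64 bases before the start, a C/EBP match on the reverse strand 155 to 148 bases before it, and a pair of CRE half-sites. Of 35116 promoter windows of the same length, 9.96% held an NF-κB match, 33.2% a C/EBP match and 21.2% a CRE half-site. The IL11 window held 1 AP-1 match, 96 to 90 bases before the start, a motif present in 6.57% of windows. The OSMR window held 1 C/EBP match. IL6ST held 1 NF-κB match and IL6R 1 C/EBP match. LIFR has 3 annotated starts. STAT matches, present in 6.57% of all windows, and C/EBP matches were found before the starts listed first and second. The window of the second also held TATA matches, present in 10.7% of all windows. No match to any of the motifs was found before the third.

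IL6, the founding cytokine of the family, had the largest difference among the members. Its probe set 205207_at stood at 9.66, 9.61 and 9.54 in the USP48-labelled arrays and at 4.84, 4.72 and 4.84 in the empty vector arrays. All USP48-labelled arrays lay far above all empty vector arrays, and the values within each group were close together. The log2 difference was 4.81 (SE 0.09, 95% interval 4.607 to 5.005, limma adjusted p = 8.4e-10). With each array left out in turn it stayed between 4.77 and 4.84. Both group means lay above the array medians, and the difference corresponds to a level 28.0-fold higher in the USP48-labelled arrays.

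IL11, a cytokine known for roles in fibrosis and bone remodelling, rose by both of its probe sets but by unequal amounts. Probe set 206924_at stood at 6.45, 6.93 and 5.97 in the USP48-labelled arrays and at 3.64, 3.70 and 3.76 in the empty vector arrays. The log2 difference was 2.75, with an SE of 0.19 and a limma adjusted p of 5.1e-06. Its empty vector mean lay below the median of every array. Probe set 206926_s_at, whose suffix marks probes shared by several transcripts, stood at 5.94, 5.95 and 5.79 in the USP48-labelled arrays and at 5.36, 5.39 and 5.28 in the empty vector arrays. Its difference was 0.55 (SE 0.09, adjusted p = 0.0013), a 1.46-fold higher level. The 95% intervals of the probe sets, 2.33 to 3.17 for 206924_at and 0.34 to 0.75 for 206926_s_at, do not meet, so the size of the IL11 increase depends on the probe set. With arrays scaled on the hybridization controls 206926_s_at was at 0.25 and no longer passed (adjusted p = 0.106).

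LIF, leukaemia inhibitory factor, known for keeping mouse embryonic stem cells undifferentiated, rose as well. Probe set 205266_at stood at 7.21, 7.29 and 7.35 in the USP48-labelled arrays and at 6.10, 6.12 and 6.15 in the empty vector arrays. The groups did not overlap, and the log2 difference of 1.16 (SE 0.09, 95% interval 0.96 to 1.35, limma adjusted p = 8.6e-06) is a 2.23-fold higher level.

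OSM, a cytokine made mainly by activated leukocytes, lies next to LIF in the RefSeq annotation, with 0 protein-coding genes between them, yet neither of its probe sets passed. Probe set 214637_at stood at 4.10, 4.39 and 4.23 in the USP48-labelled arrays and at 3.92, 4.17 and 4.32 in the empty vector arrays, so the groups overlapped. Its difference was 0.10 with a 95% interval of −0.16 to 0.37 (adjusted p = 0.60). The dim probe set 230170_at was at 2.69, 2.41 and 2.70 in the USP48-labelled arrays and at 2.71, 3.04 and 2.75 in the empty vector arrays. There the difference was −0.23, with an interval of −0.50 to 0.04 (adjusted p = 0.21). The intervals of LIF and of both OSM probe sets do not meet; the difference between the genes was not tested.

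CTF1, a cytokine first studied in heart muscle cells, stood at 5.12, 5.07 and 5.13 in the USP48-labelled arrays and at 5.05, 5.43 and 5.16 in the empty vector arrays (206813_at). The groups overlapped, and the difference was −0.11 with a 95% interval of −0.36 to 0.13 (adjusted p = 0.52).

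**Figure D2:**
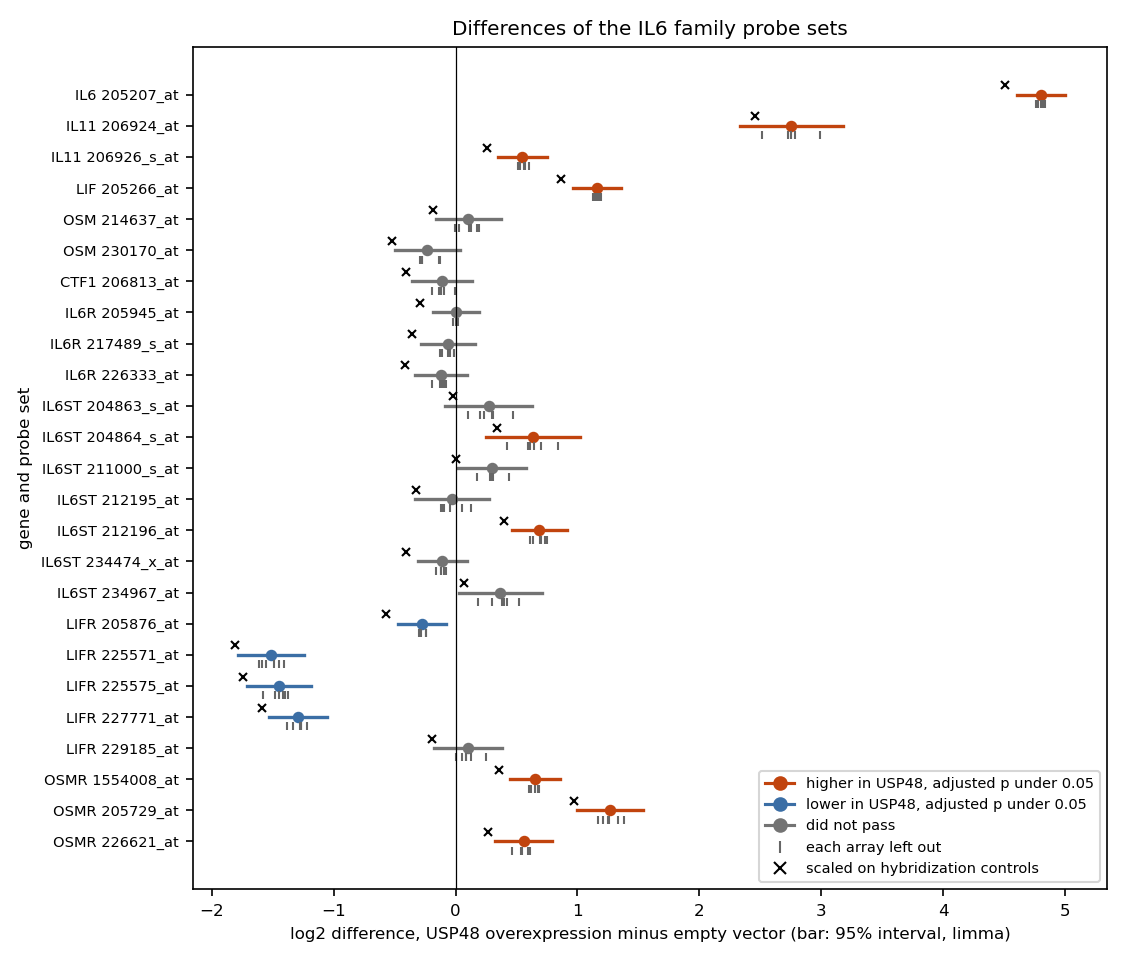
Log2 differences, USP48-labelled minus empty vector (horizontal axis), for each probe set (rows), with 95% limma intervals as bars; ticks mark the 6 fits that leave out an array and crosses the values after scaling on hybridization controls. IL6 at 4.81 and IL11 206924_at at 2.75 lie furthest to the right, 3 LIFR probe sets between −1.29 and −1.52 furthest to the left, and all 3 IL6R probe sets near 0.

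Among the receptor chains, 5 of 18 probe sets rose, 4 fell and 9 did not pass. Of all 54613 probe sets, 10.6% were called higher and 13.8% lower. OSMR, which pairs with gp130 to bind oncostatin M and also serves in the receptor for IL31, rose by all 3 probe sets. Probe set 205729_at stood at 6.48, 6.73 and 6.63 in the USP48-labelled arrays and at 5.58, 5.15 and 5.31 in the empty vector arrays. The log2 difference was 1.27 with an SE of 0.12, a 2.41-fold higher level (limma adjusted p = 3.7e-05). The brighter 1554008_at stood at 9.41, 9.48 and 9.34 in the USP48-labelled arrays and at 8.81, 8.66 and 8.80 in the empty vector arrays, a difference of 0.65 (SE 0.09, adjusted p = 0.00044). The third probe set, 226621_at, stood at 9.50, 9.53 and 9.80 in the USP48-labelled arrays and at 9.02, 9.01 and 9.12 in the empty vector arrays. Its difference was 0.56 (SE 0.11, adjusted p = 0.0027), and it no longer passed with arrays scaled on the hybridization controls (0.26, adjusted p = 0.077). No group overlapped at any OSMR probe set.

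LIFR, the chain that LIF and CTF1 share, lies beside OSMR in the RefSeq annotation with 0 protein-coding genes between them, and it moved the other way. Probe set 225575_at stood at 4.69, 4.63 and 5.04 in the USP48-labelled arrays and at 6.24, 6.17 and 6.30 in the empty vector arrays. The log2 difference was −1.45 with an SE of 0.12, or 2.73-fold lower in the USP48-labelled arrays (limma adjusted p = 1.3e-05). Probe set 227771_at stood at 5.57, 5.48 and 5.81 in the USP48-labelled arrays and at 6.94, 6.83 and 6.97 in the empty vector arrays, a difference of −1.29 (SE 0.11, adjusted p = 1.4e-05). These groups are well separated, and so are those of 225571_at, at 2.94, 2.65 and 3.01 in the USP48-labelled arrays and 4.20, 4.44 and 4.51 in the empty vector arrays. Its difference was −1.52 (adjusted p = 1.2e-05), with a USP48-labelled mean below the array medians. Probe set 205876_at changed less, at 5.32, 5.21 and 5.31 in the USP48-labelled arrays and 5.62, 5.54 and 5.51 in the empty vector arrays. Its difference of −0.28 (adjusted p = 0.045) no longer passed whichever array was left out, with adjusted p between 0.063 (without USP48 overexpression replicate 3) and 0.143 (without empty vector replicate 1). The dim 229185_at overlapped between groups, at 0.10 with an interval of −0.18 to 0.38.

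IL6ST, the signal-transducing gp130 chain common to the family, gave no uniform result over its 7 probe sets. Probe set 212196_at stood at 6.31, 6.21 and 6.49 in the USP48-labelled arrays and at 5.74, 5.55 and 5.66 in the empty vector arrays. The log2 difference was 0.69, with an SE of 0.10 and a limma adjusted p of 0.00064. The brightest, 212195_at, stood at 8.14, 7.70 and 8.20 in the USP48-labelled arrays and at 8.02, 7.90 and 8.21 in the empty vector arrays. These groups overlapped, with a difference of −0.03 and a 95% interval of −0.34 to 0.28, which does not meet the interval of 0.46 to 0.92 of 212196_at. Set against each other within each array, 212196_at lay below 212195_at by 1.82, 1.49 and 1.71 in the USP48-labelled arrays and by 2.27, 2.35 and 2.55 in the empty vector arrays; this pair was picked after its values were seen.

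Calls of 4 other IL6ST probe sets changed when single arrays were left out. The dim 204864_s_at stood at 3.05, 3.88 and 3.43 in the USP48-labelled arrays and at 2.74, 2.94 and 2.78 in the empty vector arrays (0.64, adjusted p = 0.021). It no longer passed when USP48 overexpression replicate 2 was left out (0.42, adjusted p = 0.053), nor when empty vector replicate 1 or replicate 3 was (adjusted p = 0.078 and 0.074). The scaling on hybridization controls also ended its call, at 0.34 (adjusted p = 0.106). Probe sets 204863_s_at and 211000_s_at were at 0.27 and 0.30 and did not pass (adjusted p = 0.27 and 0.117). Without USP48 overexpression replicate 2, the lowest USP48-labelled array for both, they were at 0.47 and 0.44 and passed (adjusted p = 0.022 and 0.016). The dim 234967_at was at 0.37 (adjusted p = 0.117) and passed without empty vector replicate 3 (0.52, adjusted p = 0.034), while 234474_x_at was at −0.11 and did not pass whichever array was left out. Averaged over its 7 probe sets, IL6ST was called higher at 0.30.

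IL6R, the chain that binds IL6 itself, had no called probe set. Probe set 226333_at stood at 6.30, 6.31 and 6.53 in the USP48-labelled arrays and at 6.49, 6.53 and 6.47 in the empty vector arrays, a difference of −0.12 with a 95% interval of −0.33 to 0.10. Probe set 205945_at stood at 5.001, 4.988 and 5.062 in the USP48-labelled arrays and at 5.02, 5.01 and 5.01 in the empty vector arrays, with an interval of −0.18 to 0.19. Both overlapped between groups, and so did 217489_s_at, which lay between 0.75 and 1.01 on all 6 arrays.

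These directions are relative to the deposited scaling. Scaling on the hybridization controls moved the median difference of all probe sets to −0.26, against 0.03 as deposited, and the share of called probe sets that were higher to 7.90%, against 43.4%. IL6, LIF, IL11 206924_at, OSMR 205729_at and 1554008_at, IL6ST 212196_at and the 4 LIFR probe sets kept their direction and call under it. IL6R 226333_at (−0.41, adjusted p = 0.0081), IL6R 217489_s_at, OSM 230170_at, CTF1 (−0.41, adjusted p = 0.017) and IL6ST 234474_x_at were then called lower.

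The remaining family genes were followed through 1 probe set a gene, the brightest over all arrays, in a fit over 19775 genes of which 29.8% were called, 15.7% higher and 14.1% lower, with a median log2 difference of 0.05. Of 10 measured further cytokines and receptors of the family or related to it, 1 rose, 1 fell and 8 did not pass (median 0.08). Scaling on the hybridization controls gave 1 higher and 4 lower (median −0.22). Over all 19775 genes it called 957 higher and 7495 lower (median −0.24). CRLF2, a receptor chain for thymic stromal lymphopoietin, rose by 1.29, averaging 5.65 in the USP48-labelled arrays and 4.37 in the empty vector arrays (limma adjusted p = 0.00055). IL11RA, the specific receptor of IL11, fell by 0.48, averaging 4.20 in the USP48-labelled arrays and 4.68 in the empty vector arrays (adjusted p = 0.0041), and averaged over its probe sets it was at −0.16 without a call.

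Signal transduction genes below the receptors moved both ways. Of 14 measured genes for JAK kinases, STAT factors and adaptors, 3 rose, 3 fell and 8 did not pass (median −0.08). Of all genes, 15.7% rose and 14.1% fell. Scaling on the hybridization controls gave 0 higher and 7 lower (median −0.38), where it called 957 of all 19775 genes higher and 7495 lower (median −0.24). PTPN11, the SHP2 phosphatase that docks on gp130, fell by 1.45, the RAS exchange factor SOS1 fell by 0.87 and STAT5B fell by 0.79. The adaptor GRB2 rose by 0.52, but averaged over its probe sets it was at −0.07 without a call, where PTPN11 was at −0.60 and STAT5B at −0.27. STAT3, picked after its value was seen, was called higher by 0.34 (limma adjusted p = 0.019), but was at 0.045 without a call after that scaling and did not pass when USP48 overexpression replicate 3 (adjusted p = 0.056), empty vector replicate 1 (0.057) or empty vector replicate 3 (0.072) was left out. JAK1, also picked after its value was seen, was at −0.19 and did not pass, and was called lower after that scaling (−0.49).

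Inhibitors of the pathway were split as well. Of 11 measured inhibitors, 3 rose, 3 fell and 5 did not pass (median −0.02), where 15.7% of all genes rose and 14.1% fell. The same scaling gave 2 higher and 6 lower (median −0.32), beside 957 higher and 7495 lower of all 19775 genes (median −0.24). The feedback inhibitors SOCS1 and SOCS3 rose by 1.19 and 1.18 and SOCS2 by 0.49, while SOCS5 fell by 0.42. Averaged over their probe sets, SOCS1 and SOCS3 were at 0.51 and 0.46 and passed, and SOCS2 did not pass after scaling on the hybridization controls (0.19). SOCS5 did not pass when USP48 overexpression replicate 1 was left out (adjusted p = 0.062), and not when empty vector replicate 1 was (adjusted p = 0.066). Of 8 measured genes for receptor shedding, sorting and turnover, 0 rose, 4 fell and 4 did not pass (median −0.17), where 14.1% of all genes fell. With that scaling 6 fell (median −0.46), where 7495 of all 19775 genes did. The ubiquitin ligases STUB1 and CBL both fell by 0.65, the protease NRDC fell by 0.34 and the sheddase ADAM10 by 0.31. CBL and ADAM10 averaged over their probe sets were at −0.09 and −0.04 without a call, and ADAM10 did not pass when USP48 overexpression replicate 1, empty vector replicate 1 or empty vector replicate 3 was left out (highest adjusted p = 0.066). ADAM17, the sheddase that releases soluble IL6R, was picked after its value was seen and did not pass (0.21).

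Genes that STAT3 is known to induce in many cell types were mostly higher. Of 19 measured, 14 rose, 2 fell and 3 did not pass (median 0.53), where 15.7% of all genes rose and 14.1% fell. The adhesion molecule ICAM1 rose by 1.87, the survival factor MCL1 by 1.22, IL4R by 1.20 and SOCS3 by 1.18. Many of these genes have other known inducers, and the median was 0.24, with 9 higher and 2 lower, after scaling on the hybridization controls. Over all 19775 genes that scaling called 957 higher and 7495 lower (median −0.24). Of 20 measured hepatic acute-phase genes, 2 rose, 0 fell and 18 did not pass (median 0.11), below the 15.7% higher and 14.1% lower of all genes. Of these 20, 13 had both group means below the array medians. Scaled on the hybridization controls, the list had a median of −0.18, with 1 higher and 4 lower. Complement factor CFB rose by 0.89, averaging 5.46 in the USP48-labelled arrays and 4.57 in the empty vector arrays, and was at 0.35 with the mean of its probe sets. STEAP4 was called higher by 0.24 but did not pass whichever array was left out (highest adjusted p = 0.134, without empty vector replicate 2), and it was at −0.05 after scaling on the hybridization controls. CRP, the classical IL6-induced acute-phase protein, was picked after its value was seen; it averaged 2.87 in the USP48-labelled arrays and 2.77 in the empty vector arrays and did not pass (adjusted p = 0.46).

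Regulators of IL6 transcription and of IL6 mRNA decay changed in 19 of 20 measured cases, 16 higher and 3 lower (median 0.57). Over all genes 29.8% were called, 15.7% higher and 14.1% lower. The AP-1 subunit FOSL1 rose by 2.50, the NF-κB inhibitor TNFAIP3 by 2.19, the NF-κB subunit RELB by 1.40 and JUN by 1.02. The list thus pools an inhibitor with subunits of the same factor, so its counts and median give no single direction for IL6. After scaling on the hybridization controls 9 were higher and 3 lower, with a median of 0.27. Of all 19775 genes, 957 were then higher and 7495 lower (median −0.24). This list shares CEBPB, CEBPD, FOS and JUNB with the STAT3-induced list, so the counts are not separate evidence. SOCS3 is likewise counted in both the inhibitor list and the STAT3-induced list.

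**Figure D3:**
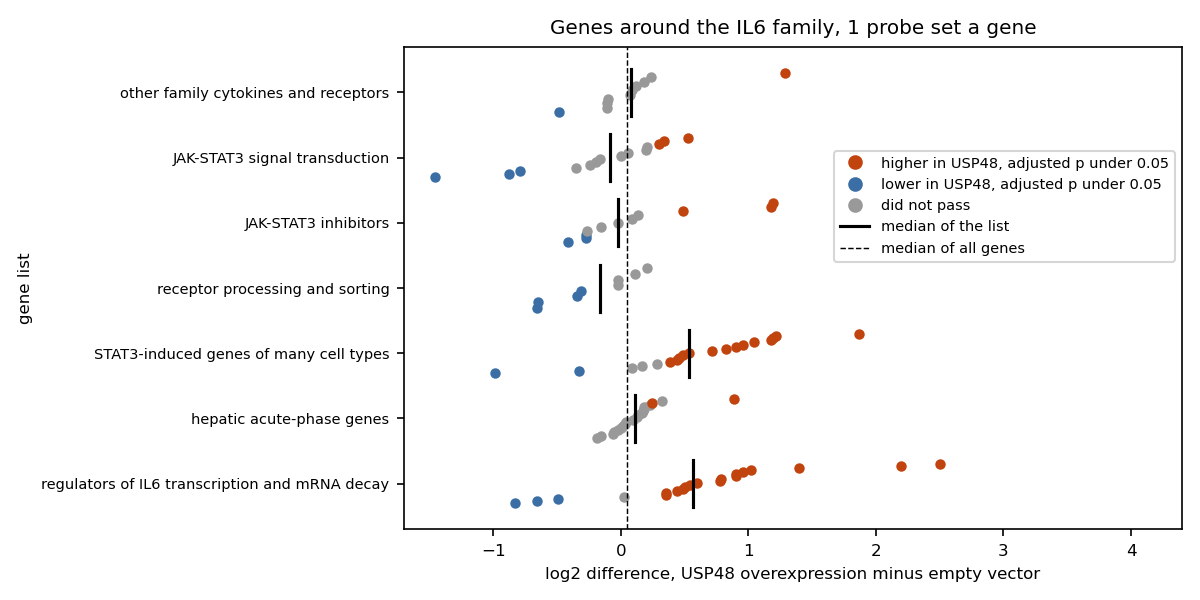
Log2 differences, USP48-labelled minus empty vector (horizontal axis), of the measured genes of each list (rows, 1 point a gene, spread vertically for visibility), with black bars for list medians and a dashed line for the median of all genes. The STAT3-induced list (median 0.53) and the regulators of IL6 (median 0.57) lie mostly to the right. Of 20 acute-phase genes, 18 did not pass, where 29.8% of all genes were called.

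The genes whose values over the 6 arrays lay closest to those of IL6, after each gene's own mean was subtracted, were RSAD2 at a root-mean-square distance of 0.25 on the log2 scale, RIGI at 0.26, CCL5 at 0.48, MX2 at 0.55 and CXCL11 at 0.58. This distance responds mainly to the size of the difference between the groups. RSAD2 averaged 7.86 in the USP48-labelled arrays and 3.21 in the empty vector arrays. RIGI averaged 8.75 in the USP48-labelled arrays and 4.35 in the empty vector arrays, beside 9.61 in the USP48-labelled arrays and 4.80 in the empty vector arrays for IL6.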

How the data were processed

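The deposited file holds 1 log2 value per probe set and array, made by the authors with RMA per the submitters' processing notes; its version and settings, and any detection calls, are not stated in the labels. Values ran from 0.19 to 13.24, and RMA seldom gives values under 1, so the background step is uncertain. RMA puts all arrays on 1 signal distribution, and a shift in RNA content of the cells would not show. With 3 arrays a group, their number limits the precision.

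Of 54675 probe sets, 62 were controls, 41091 named 1 symbol in the platform annotation, 1801 several and 11721 none; 41037 matched RefSeq by gene ID and 0 symbols changed. Every non-control probe set was fitted with limma 3.58.1 in R 4.3.3 (lmFit, eBayes, two-sided, Benjamini-Hochberg over all 54613, threshold 0.05). The same fit over 19775 genes used the probe set with the highest mean. No filter, further normalization or set test was applied. The fit was tested on simulated data with independent normal noise, without differences shared by the probe sets of an array. That test therefore does not cover the technical differences between these arrays.

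Members, lists and tests were chosen with earlier results of these data known. Named are all member and USP48 probe sets, up to 4 called genes per list with the largest difference, and the 5 genes nearest to IL6; other genes are named as picked after their values were seen, beside marker genes. Alternatives were quantile normalization, median centring, scaling on hybridization controls, a robust prior with an intensity trend, removal of the dimmest 33.3% of features, averaging the probe sets of each gene, the replicate number as a block, an adjusted p under 0.01 and each array left out. Figures used matplotlib 3.10.9.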

Additional observations from a re-analysis of the deposited data

How the results depend on the processing

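Of the 13 probe sets called in the family, 11 or 12 kept their call with each array left out. In all, 11 to 13 family probe sets were then called, and LIFR 205876_at was lost each time. Over all 54613 probe sets, 10101 to 12594 were called in these fits, against 13287 with all arrays. The replicate block, quantile normalization and median centring each kept 12 and lost LIFR 205876_at. Scaling on the hybridization controls kept 10, lost 3 and newly called 5, all lower. That scaling called 23118 of all probe sets and 8452 of 19775 genes. Among these were 5 genes of the wider family list, 5 acute-phase genes (4 of them lower) and 12 regulators of IL6. It turned IL6ST 204863_s_at to −0.023, IL6R 205945_at to −0.29, OSM 214637_at to −0.19, LIFR 229185_at to −0.19, USP48 229812_at to −0.052, STEAP4 to −0.049, ADAM17 to −0.088 and CRP to −0.20, of which none was called under it. This scaling lowers every difference by construction. An adjusted p under 0.01 left 8356 probe sets, 3847 genes, 3 inhibitors, 2 receptor processing genes and 1 acute-phase gene. With the mean of all probe sets 1 gene of the wider family and 2 receptor processing genes were called, beside 5411 of all 19775 genes. GRB2 then turned to −0.069 and the uncalled JAK1 to 0.070. Median centring left 1 acute-phase gene, beside 5857 of all 19775 genes called. With an array left out, the acute-phase count ran from 1 to 3 and that of inhibitors from 3 to 5. The count over all 19775 genes ran from 4547 to 5673 in these fits, against 5897 with all arrays. The uncalled OSM 214637_at ran from −0.0038 to 0.19, IL6ST 212195_at from −0.12 to 0.12 and IL6R 205945_at from −0.017 to 0.020. The cause of these changes was not tested. Same-numbered arrays of the 2 groups had correlated deviations of −0.02, 0.11 and −0.02, and not every array correlated best with its own number, so the numbers were not taken as pairs; with the block, 12702 probe sets were called, against 13287 without it, and LIFR 205876_at did not pass (adjusted p = 0.067). Dim probe sets limit what can be said of OSM, and of parts of IL6R, IL6ST and LIFR.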
